A study of Mus musculus with 2 samples.

Results

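The proteasome is the large protease that degrades proteins tagged with ubiquitin, and the genes described here encode its subunits, its activators, its inhibitor and the chaperones that assemble it. Members were the probe sets whose annotation gave exactly 1 gene symbol beginning with Psma, Psmb, Psmc, Psmd, Psme, Psmf or Psmg followed by a digit. Psmb8, Psmb9 and Psmb10, the interferon-inducible catalytic subunits, were kept apart. The rule found 45 genes, read by 82 probe sets, among 12393 genes with 1 symbol. It used no measured value. Of the 45 genes, 42 measured ones encode parts or helpers of the proteasome. Psma8, a testis form of an alpha subunit, lay under the level taken as measurable, and Psmc3ip and Psme3ip1 matched by symbol although neither encodes a subunit.

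RNA came from 2 cultures of NIH 3T3, an established mouse embryonic fibroblast line, each taken 48 hours after transfection with Lipofectamine. One culture received the plasmid pHA-CMV-ATCE1-C-del, which makes a C-terminally deleted form of ATCE1 that the design text calls nuclear, and the other received the empty vector pHA-CMV. ATCE1, now named Creb3l4, is a basic leucine zipper transcription factor related to CREB. Both plasmids carry the CMV promoter by name, so expression was not limited to a cell type, and what share of the cells took up plasmid is not stated by the labels. Each culture was read on 1 Affymetrix array, so there is no replicate error and no test for any value below, and fold sizes only describe these 2 arrays.

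The protease works as a barrel of stacked rings. The outer alpha rings form a gate, the inner beta rings carry the cutting sites, and a regulatory particle at the end of the barrel recognises ubiquitin, unfolds the substrate with a ring of ATPases and removes the ubiquitin chain with its lid. Subunits are made in matched amounts, and in mammalian cells the transcription factor Nfe2l1 raises many of their genes together when protease activity is short. Fibroblasts, like all growing cells, depend on it for turnover of cyclins and of misfolded proteins.

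Because ATCE1 belongs to the CREB family, promoters were examined for its family's response element, the CRE. The windows of 300 bases around the annotated starts of the members at least 1.2-fold higher are shown here, since these members had the largest ratios. They are RefSeq sequences of the assembly GRCm38.p6, read along the gene from 250 bases before the start to 50 bases after it. Capitals mark every match on either strand to the CRE half-site TGACG, the antioxidant response element TGANNNNGC bound by Nfe2l1 and its relatives, or the CCAAT box CCAAT. The table used holds no entry for Psmb1.
Psme3 (chr11:101315963-101316262, + strand): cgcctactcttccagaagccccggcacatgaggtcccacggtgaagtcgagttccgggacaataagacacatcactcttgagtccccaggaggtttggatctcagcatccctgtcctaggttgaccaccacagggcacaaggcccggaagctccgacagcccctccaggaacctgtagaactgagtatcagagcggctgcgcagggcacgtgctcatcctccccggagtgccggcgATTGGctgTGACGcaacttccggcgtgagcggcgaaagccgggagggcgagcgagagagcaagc
Psmb3 (chr11:97703184-97703483, + strand): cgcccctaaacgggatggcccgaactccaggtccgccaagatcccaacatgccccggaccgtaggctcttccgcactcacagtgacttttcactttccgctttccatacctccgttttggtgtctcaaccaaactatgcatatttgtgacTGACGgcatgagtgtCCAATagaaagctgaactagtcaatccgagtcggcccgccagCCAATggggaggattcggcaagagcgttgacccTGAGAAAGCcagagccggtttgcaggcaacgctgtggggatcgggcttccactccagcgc
Psmc1 (chr12:100109952-100110251, + strand): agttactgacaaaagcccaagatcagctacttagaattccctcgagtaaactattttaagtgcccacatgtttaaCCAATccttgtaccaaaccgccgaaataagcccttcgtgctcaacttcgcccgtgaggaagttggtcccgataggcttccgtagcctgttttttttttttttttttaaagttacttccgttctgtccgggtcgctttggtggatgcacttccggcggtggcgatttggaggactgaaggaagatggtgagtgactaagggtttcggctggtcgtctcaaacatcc
Psmc6 (chr14:45329574-45329873, + strand): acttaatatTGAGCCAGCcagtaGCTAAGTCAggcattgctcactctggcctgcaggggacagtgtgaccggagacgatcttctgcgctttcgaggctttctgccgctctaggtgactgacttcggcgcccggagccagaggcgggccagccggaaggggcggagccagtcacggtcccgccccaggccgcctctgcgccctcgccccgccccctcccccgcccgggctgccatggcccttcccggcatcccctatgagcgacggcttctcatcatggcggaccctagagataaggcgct
The window of Psme3 holds a half-site 6 bases before the start and a CCAAT box on the opposite strand 14 bases before it. That of Psmb3 holds a half-site 100 bases before the start, CCAAT boxes at 85 and 43 bases before it and an antioxidant element 10 bases before it. Psmc1 has only a CCAAT box, 175 bases before its start, and Psmc6 has only antioxidant elements, 241 and 227 bases before its start.

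Signals are MAS5 values, the brightness of a probe set on a linear scale after each array was set to the same trimmed mean. A probe set counted as measured if it reached the median of its array, 77.4 for ATCE1-C-del and 75.8 for empty vector, on at least 1 array. This held for 65 of the 82 member probe sets and for 44 of the 45 genes, and all 44 genes lay above it on both arrays. A gene was read from its brightest probe set. Ratios are the log2 of the ATCE1-C-del signal over that of the empty vector. Over 2451 genes with 2 probe sets measured on both arrays, the brightest and second-brightest were compared. Their disagreement gave an SD of 0.20 for the log2 ratio of a single probe set. It is the only error estimate at hand, and it leaves out differences between cultures. Signals of different genes depend on their probes and were not set against each other.

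The proteasome genes as a whole lay slightly above level with ATCE1-C-del. Of the 44 measured members, 29 (65.9%) had a log2 ratio above 0 and 15 below, where 48.7% of all 6810 measured genes lay above 0 and 51.3% below. The median over members was 0.07 (1.05-fold), against -0.0059 for all measured genes and -0.016 for the 4527 genes within the members' range of signal, 199 to 2890.0. Only 5 members (11.4%) were at least 1.2-fold higher, beside 9.41% of all genes and 6.87% of those within the members' range of signal. None was at least 1.2-fold lower, where 12.3% of all genes were, and 498 of the 4527 within that range. None passed 1.5-fold in either direction, which 0.94% of all genes did upward and 1.07% downward. The members ran from -0.24 for Psme1 to 0.47 for Psme3, and their interquartile range, 0.22, was near that of genes within the same range of signal, 0.25. These directions are relative to the other genes. Scaled to the hybridisation controls, which read RNA added after labelling, all measured genes had a median of 0.27 and the members one of 0.34. All 44 members were then above 0, as were 88.5% of all measured genes. This scaling shifts every log2 ratio alike, so the gap of 0.08 between members and all genes was bound to stay. In RNA from a whole culture, fewer cells making a transcript and less transcript per cell cannot be told apart.

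**Figure D1:**
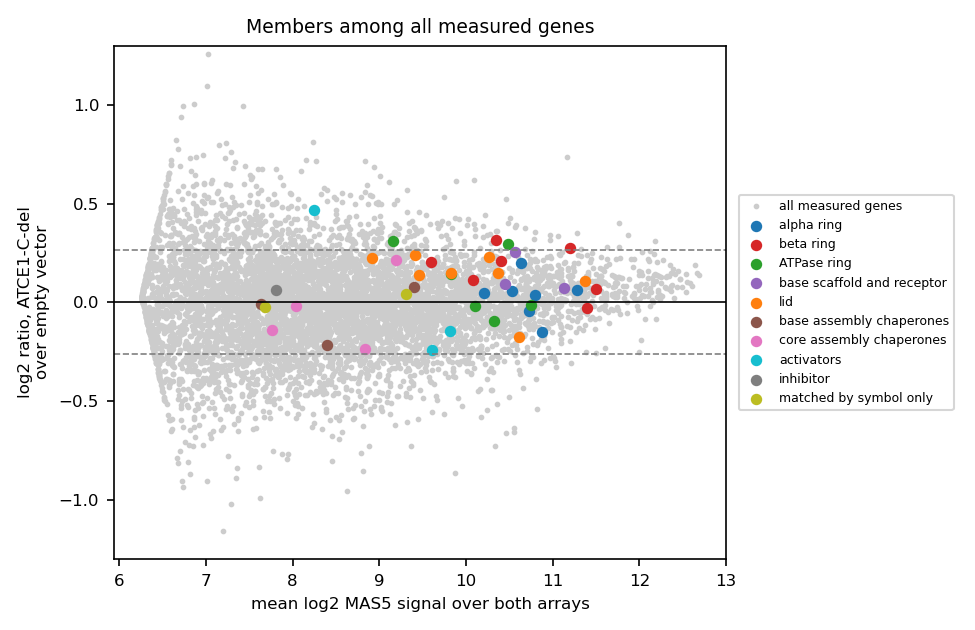
Log2 ratio of the arrays, ATCE1-C-del to empty vector (vertical axis), against the mean log2 MAS5 signal of both arrays (horizontal axis), with 1 point per gene, all measured genes in grey, members coloured by role and dashed lines at 1.2-fold. Of the members, 5 lie above the upper dashed line and 0 below the lower one, and 2 genes that are no members fall outside the axis.

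The upward tilt was not repeated by further probe sets of the same genes. In 16 members a second probe set was measured on both arrays. On the brightest probe set 12 of these 16 genes were higher, with a median log2 ratio of 0.10, but on the second-brightest 8 were higher and 8 lower, with a median of 0.0087. Over the 2451 genes with such a pair, 47.0% were higher on the brightest and 51.8% on the second, with medians of -0.014 and 0.01. Both readings lay on the same side of 0 in 10 of the 16 members (62.5%), as in 60.2% of all such genes.

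The catalytic beta ring held the highest median of any group with more than 3 genes. It had 6 of 7 measured members on the higher side, at a median of 0.20 in log2 (1.15-fold). Psmb3, a structural subunit without a cutting site, read 1457 against 1169, 1.25-fold higher, the ATCE1-C-del signal being given first here and below. Its second probe set read 1233 against 1131, a log2 ratio of only 0.13. Psmb1, also structural, read 2597 against 2144, 1.21-fold higher. These were the only beta subunits past 1.2-fold.

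The cutting subunits lay between level and 1.16-fold higher. Psmb5, which cuts after hydrophobic residues, read 1458 against 1262, 1.16-fold higher. Psmb6, which cuts after acidic residues, read 1124.5 against 1039.7, 1.08-fold higher. Psmb7, which cuts after basic residues, was almost level at 2661 against 2716, a log2 ratio of -0.03, and was the single beta subunit below 0. Psmb5 and Psmb7 differed by 0.24 in log2 ratio, within the SD of 0.28 that the spread of single probe sets gives for a difference. The structural subunits Psmb2 (831 against 722, 1.15-fold) and Psmb4 (2961 against 2821, 1.05-fold) lay on the higher side, and the second probe set of Psmb4 repeated its value at a log2 ratio of 0.06.

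The interferon-inducible counterparts of the cutting subunits were gave a ratio for Psmb10 only. Psmb8, which takes the place of Psmb5, read 4.0 against 2.3, and Psmb9, which takes the place of Psmb6, read 54.9 against 65.2, all under the measurable level. Psmb10, which takes the place of Psmb7, read 231 against 264.5, a log2 ratio of -0.20. So 1 of these 3 genes was measured, and it lay below 0.

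The alpha ring, which gates the barrel, stayed near level. Its 7 measured members, 5 above and 2 below 0, had a median of 0.04 in log2 (1.03-fold), and none passed 1.2-fold. Psma5 stood highest at 1706 against 1486.5, 1.15-fold higher, and its second probe set gave 1548 against 1387, a log2 ratio of 0.16. Psma6 stood lowest at 1789 against 1985, a log2 ratio of -0.15, but its second probe set gave 1858 against 1757, at 0.08. The direction of Psma6 therefore depended on the probe set. Psma3 (2531.5 against 2426), Psma1 (1197 against 1160.2), Psma2 (1801 against 1758) and Psma4 (1671 against 1725) lay within 1.05-fold. Psma7 lay there too at 1507 against 1451, with its second probe set on the other side at -0.05. The only reading of Psma8 was 0.70 against 10.9, under the measurable level on both arrays.

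**Figure D2:**
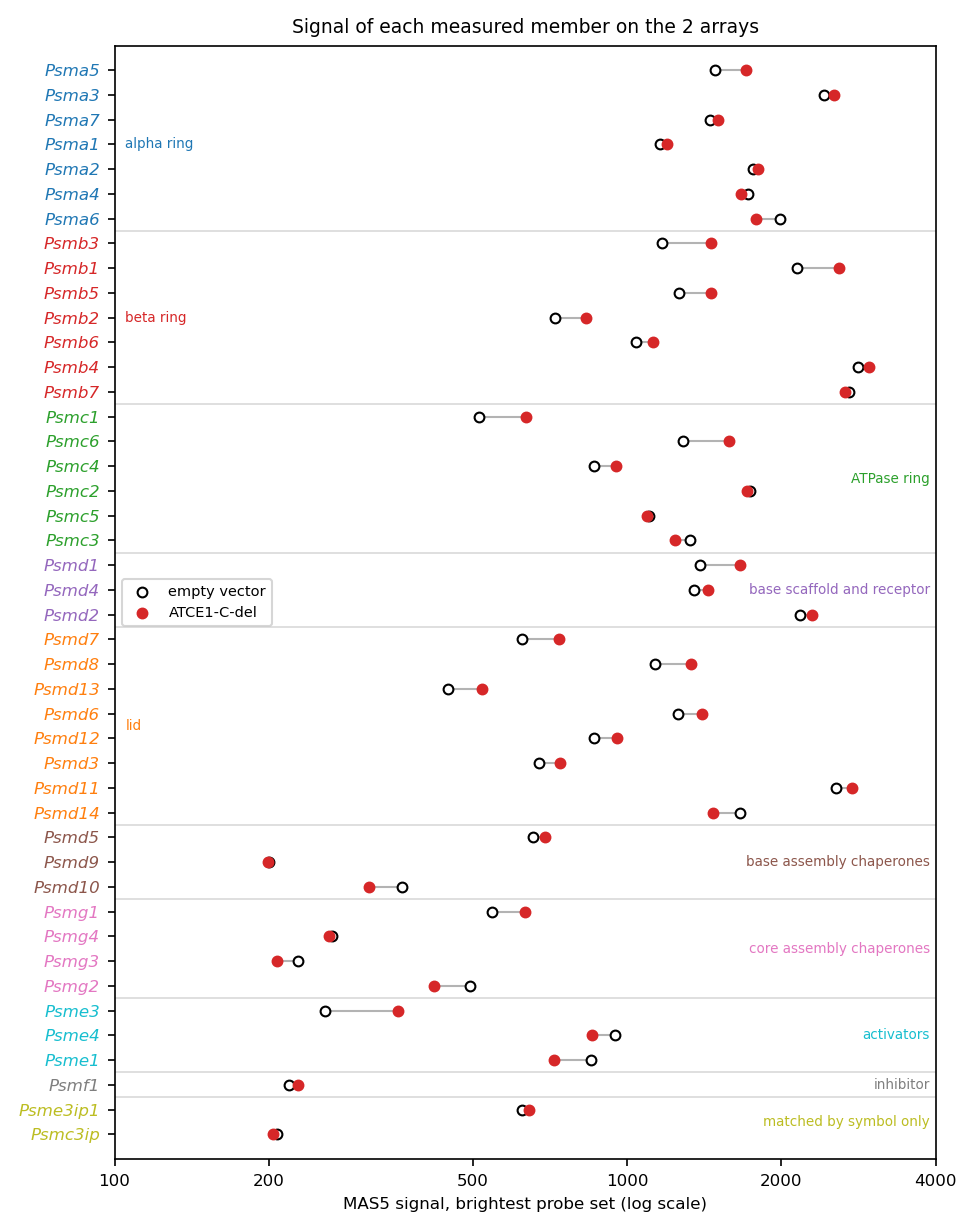
MAS5 signal of the brightest probe set (horizontal axis, log scale) for each of the 44 measured members, ordered by role and ratio, with open circles for the empty vector array and red circles for the ATCE1-C-del array. The red circle lies to the right in 6 of 7 beta subunits and 7 of 8 lid subunits. It lies to the left in 3 of 4 core assembly chaperones. With the arrays scaled to the hybridisation controls, all 44 members would lie to the right, as would 88.5% of all measured genes.

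The ATPase ring, which unfolds substrates, was split. Its 6 members fell 3 and 3 on either side of 0, around a median of 0.06 in log2. Psmc1 read 636.5 against 513.5, 1.24-fold higher, and had no other measured probe set. Psmc6 read 1581 against 1288, 1.23-fold higher, yet its second probe set read 211 against 256, 1.21-fold lower. The direction of Psmc6 rests on which probe set is read. Psmc4 showed the same on a smaller scale, with 950.1 against 862 on the brightest probe set (1.10-fold higher) and 526.5 against 554 on the other, a log2 ratio of -0.07. The remaining ATPases, Psmc2 (1715 against 1734), Psmc5 (1091.5 against 1104) and Psmc3 (1241 against 1327), had log2 ratios of -0.02, -0.02 and -0.10. The median of the ring lay below 0 with the average over probe sets, with the second-brightest probe set and without probe sets that can match several transcripts.

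The non-ATPase subunits of the base, which scaffold the particle and bind ubiquitin, were all on the higher side. Psmd1, a scaffold, read 1659 against 1388, 1.19-fold higher, just inside 1.2-fold. Psmd2, the other scaffold, read 2291 against 2177, 1.05-fold higher. The ubiquitin receptor Psmd4 was read by 3 measured probe sets, at 1439.6 against 1348, 1169 against 1081 and 81.7 against 56.9. These gave log2 ratios of 0.09, 0.11 and at least 0.11, the last with the empty vector signal under the measurable level.

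The lid holds the enzyme that removes ubiquitin, and its member genes were all higher but the one for that enzyme. Sem1, a lid subunit counted here among the associated factors, read 2042 against 1926, a log2 ratio of 0.08. Its second probe set gave -0.30. Of the 8 lid members, 7 were above 0 and 1 below, the median was 0.15 in log2 (1.11-fold), and none passed 1.2-fold. Psmd7, the partner of the enzyme, read 738 against 625, 1.18-fold higher. Psmd8 read 1331 against 1136, 1.17-fold higher, and Psmd13 read 521 against 446, 1.17-fold higher, with its second probe set at a log2 ratio of 0.09. These are structural subunits of the lid.

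Psmd14, the deubiquitinating enzyme itself, was the exception at 1470.2 against 1658, a log2 ratio of -0.17. It was read by a single probe set, so no second reading bears on it. Psmd7 and Psmd14 form a pair in the particle, and their log2 ratios differed by 0.41. They were also the highest and lowest of the lid members. The SD of 0.28 for a difference from the spread of probe sets therefore does not measure this gap. The structural subunits Psmd6 (1397 against 1259), Psmd12 (955 against 862), Psmd3 (740.1 against 673) and Psmd11 (2747 against 2552.5) were between 1.08-fold and 1.11-fold higher. The second probe set of Psmd6 went the other way, at -0.08. The further probe sets of Psmd11 lay at 0.06, 0.11 and -0.06.

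**Figure D3:**
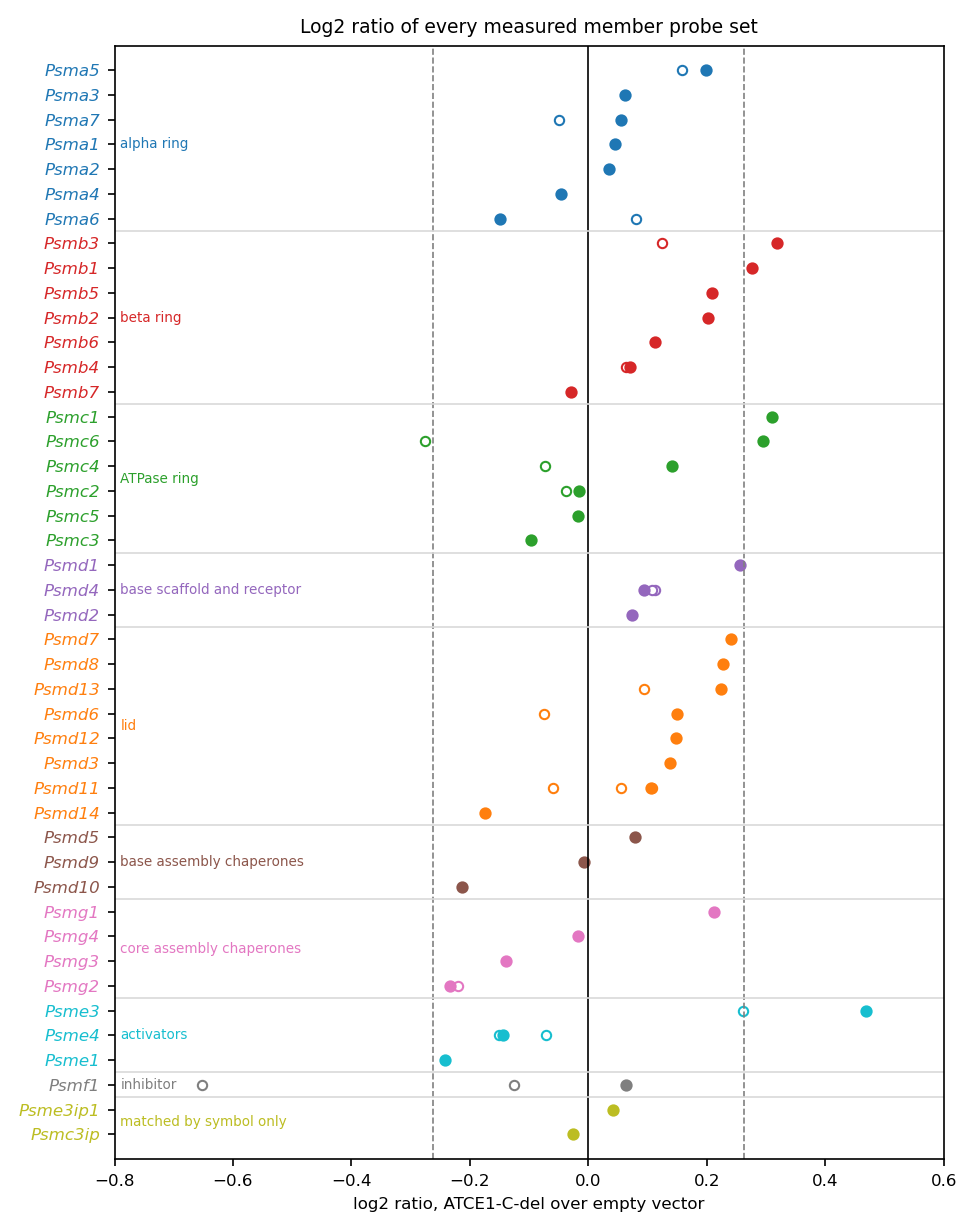
Log2 ratio, ATCE1-C-del to empty vector, (horizontal axis) for the 65 measured probe sets of the 44 members, with filled circles for the brightest probe set of each gene, open circles for its others (1 of those of Psmd4 is a lower bound) and dashed lines at 1.2-fold. Open and filled circles of Psmc6 lie near opposite dashed lines, and those of Psme3 are both on the higher side.

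Assembly chaperones bring subunits together and leave before the particle is finished. The 7 with Psm symbols had 2 genes above 0 and 5 below, at a median log2 ratio of -0.02. Pomp, an assembly chaperone counted here among the associated factors, read 1404 against 1276, a log2 ratio of 0.14. Of the 31 member subunits of the core and regulatory particles, 24 were higher, with a median of 0.11. The difference from the chaperones was not tested. Scaling to the hybridisation controls put all 7 chaperones with Psm symbols above 0, along with 88.5% of all measured genes. The medians of these chaperones became 0.27 for those of the base and 0.19 for those of the core. Every gene is shifted alike by it, so the order of the groups could not change. Among the chaperones of the core, Psmg1 read 632 against 545, 1.16-fold higher. Its partner Psmg2 read 420.1 against 494, 1.18-fold lower, and 417 against 486 on a second probe set, at a log2 ratio of -0.22. The partners had readings on opposite sides of 0, 0.45 apart. They were also the highest and lowest chaperones of the core, so the SD of 0.28 for a difference does not measure this gap. The other pair, Psmg3 (207 against 228) and Psmg4 (262 against 265), had log2 ratios of -0.14 and -0.02, and the value of Psmg4 changed sign under quantile normalization and lowess.

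The chaperones of the base carry Psmd symbols. Psmd10, also known as gankyrin, read 314 against 364, 1.16-fold lower. Psmd5 read 692.5 against 655.5, 1.06-fold higher, and Psmd9 was level at 199 against 200. By symbol prefix alone, 11 of the 14 Psmd genes were higher around a median of 0.12, and 3 of the 7 Psmc genes, Psmc3ip among them, around a median of -0.02.

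The activators, which open the barrel without the regulatory particle, held both extremes of the whole set. Psme3, the nuclear member of the family, was the highest of all 44 members. It read 357 against 258.0, 1.38-fold higher, and 308.5 against 257 on a second probe set, a log2 ratio of 0.26, just inside 1.2-fold. Psme3 was 0.71 above Psme1. As the highest and lowest of 44 members they were picked by their values, so the SD of 0.28 for a difference does not measure this gap. A floor at each array's 75th percentile held the log2 ratio of Psme3 to 0.18, since its empty vector signal was raised to that floor.

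Psme1, the interferon-inducible alpha subunit of the cytoplasmic activator, was the lowest of all members at 719 against 849.6, 1.18-fold lower. The probe set of its partner beta subunit names both Psme2 and Psme2b and so was no member. It read 807 against 893, a log2 ratio of -0.15. Psme4, a nuclear activator of a different family, read 856 against 946, 1.11-fold lower, and its other probe sets gave -0.07 and -0.15. So the readings of Psme1, Psme4 and the probe set for Psme2 and Psme2b lay below level and both of Psme3 above. Scaled to the hybridisation controls, Psme1 and Psme4 came to 0.03 and 0.13 in log2 ratio and Psme3 to 0.74. That scaling shifts every gene alike, so their order could not change.

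Psmf1, which encodes an inhibitor of the core, gave readings that do not go together. Its brightest probe set read 228 against 219, a log2 ratio of 0.06, whereas the others read 123 against 193, 1.57-fold lower, and 104 against 113, a log2 ratio of -0.12. The second of these 3 was the only member probe set past 1.5-fold, a size that 1.39% of the 11637 measured probe sets reached downward and 1.12% upward. No direction can be given for this gene. Of the genes that matched by symbol only, Psme3ip1, which encodes a protein that binds Psme3, read 643 against 624, and Psmc3ip, a meiotic recombination factor, read 204 against 208, both within 1.05-fold.

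Genes that regulate or accompany the proteasome lay on both sides of level. Of 13 such genes measured, 6 (46.2%) lay above 0 and 7 below, around a median of -0.02, near the 48.7% of all measured genes. Nfe2l1, the factor that drives proteasome genes, read 538.5 against 656, 1.22-fold lower, and Ngly1, the enzyme that activates it by removing sugars, read 422 against 485, 1.15-fold lower. Uchl5, a deubiquitinating enzyme bound to the particle, had a log2 ratio of 0.26 at 526 against 440.1, and Ecpas, a scaffold protein of the particle, was 1.11-fold lower at 519 against 578.

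Other large cytosolic complexes lay at the same height as the proteasome. Of 10 measured genes of the COP9 signalosome, a complex built like the lid, 8 were higher around a median of 0.08, led by Cops5, the counterpart of Psmd14, at 0.17. Cops8, Gps1 and Cops7b stood at 0.14, 0.14 and 0.12, the second probe set of Cops7b at -0.25. Of 13 measured genes of the TRiC chaperonin and its partner prefoldin, which fold new proteins, 9 were higher with a median of 0.08, led by Pfdn6 (0.26), Tcp1 (0.24), Vbp1 (0.22) and Cct4 (0.13), while other probe sets of Cct4 ran from -0.13 to 0.51. The median of 0.07 of the proteasome members was therefore not particular to them.

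The CRE was then counted over all member promoters. Of the 44 measured members, 37 have promoter windows in the table, 40 windows in all. The full palindrome TGACGTCA, searched as 1 motif since it reads alike on both strands, was found in 0 of the 40, where 1.79% of all 32851 promoters and 3.19% of the promoters of measured genes hold it. The half-site TGACG, which is part of the palindrome, was found on either strand in 17 of 40 windows (42.5%), against 20.8% of all promoters and 33.7% of those of measured genes. The antioxidant element TGANNNNGC was in 22 windows (55.0%), against 41.3% and 42.6%, and CCAAT in 14 (35.0%), against 37.4% and 37.9%. A match is a description of letters and not a bound site.

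Half-sites were found in all 4 beta subunit genes and 4 of the 6 lid genes that have a window. They were in 3 of 7 alpha and in 2 of 5 ATPase genes. The base scaffold and receptor group, at a median of 0.09, had them in 0 of 3 genes. The activators, at the lowest group median of -0.14, had them in 2 of 3. Each group of assembly chaperones had them in 1 of 3. The beta and lid windows are shown because these groups had the highest medians among those with more than 3 genes. Each runs 10 bases to either side of the match nearest to the start, along the gene, with the half-site in capitals, again from RefSeq, GRCm38.p6.
Psmb3 (chr11:97703324-97703348, + strand): tatttgtgacTGACGgcatgagtgt
Psmb4 (chr3:94886935-94886959, - strand): ccgtttccggTGACGctagcgcttt
Psmb5 (chr14:54618028-54618052, - strand): cgtgaagttgTGACGtcgcggcgtt
Psmb6 (chr11:70525338-70525362, + strand): ctaaagagagTGACGgagcgcttta
Psmd6 (chr14:14120943-14120967, - strand): ggggaacctgTGACGactcctcctg
Psmd8 (chr7:29180794-29180818, - strand): cgccacccctTGACGtagaggcggt
Psmd12 (chr11:107479514-107479538, + strand): ccggtgcgagTGACGagtggtggcc
Psmd13 (chr7:140882317-140882341, + strand): gcggttacctTGACGaccgcaaccc
Beyond the shared half-site the flanks differ from gene to gene, although those of Psmb4 and Psmb6 both hold agcgcttt after it.

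Members with a half-site had higher ratios than those without, a split chosen after the values were seen and not tested. Of the 17 genes with a half-site, 15 were higher around a median of 0.15, with Psme4 (-0.14) and Psmc2 (-0.02) below 0. Of the 20 genes without one, 10 were higher with a median of 0.01. Over all measured genes with a window, 51.5% of 2196 with a half-site were higher, at a median of 0.0058, and 47.1% of 3434 without, at a median of -0.012. With the average over probe sets the members' medians were 0.11 and -0.012, but with the second-brightest probe set they were 0.012 over 10 genes and 0.056 over 5, the opposite order. For the antioxidant element, 14 of 21 members with it and 11 of 16 without it were higher, at medians of 0.08 and 0.06. For CCAAT, 9 of 14 with it and 16 of 23 without it were higher, at medians of 0.04 and 0.11.

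**Figure D4:**
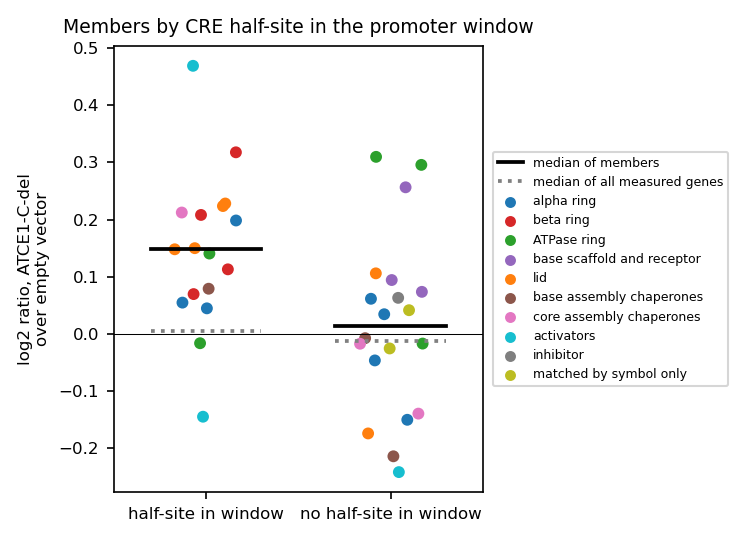
Log2 ratio, ATCE1-C-del to empty vector, (vertical axis) of the 37 members with a promoter window, split by a CRE half-site in the window, 1 point per gene coloured by role, with sideways scatter only to separate points. Black bars are the members' medians, 0.15 with and 0.01 without a half-site, and dotted bars the medians of all measured genes, 0.0058 and -0.012.

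On the culture as a whole, all 10 fibroblast markers examined were measured, and 0 of 5 epithelial, 0 of 4 endothelial, 0 of 4 muscle and 0 of 5 spermatid markers were. Of 5 macrophage markers 2 were measured, Cd14 at a log2 ratio of 0.15 and Cd68 at one of at least 0.10, its empty vector signal being under the measurable level, and their part in the results was not tested. Creb3l4 itself read 18 against 20.7, under the measurable level on both arrays, so its probe set does not check which culture carried the insert.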

How the data were processed

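The authors deposited linear intensity values made with MAS5, per the submitters' processing notes, whose version, target value and detection calls are not stated there. The table held 22690 probe sets. The 64 AFFX controls stayed out of the comparison. Symbols came from the platform annotation (20393 probe sets with 1 symbol, 691 with several, 1606 with none). Here, each array was divided by its mean after trimming 2% at each end (250.1 on both), signals under the array's median were set to that median, and log2 ratios were taken. Each gene was read from the probe set brightest in mean log2 signal. With 1 array per group no test was made. Changes were counted at 1.2-fold and 1.5-fold. The number of arrays limits the precision. The procedure was tested on simulated data with planted changes of 1.5-fold or more. No member gene reached that size, so this does not bear on the smaller ratios reported. Both signals were printed by rule for members past 1.2-fold, for the extremes of each group and for members with opposed probe sets, and for listed genes the 4 largest ratios. The members, gene lists and alternatives were chosen with earlier results of these data known. Lists were proteasome-associated factors, the immunoproteasome, ubiquitin and shuttling, the COP9 signalosome, TRiC with prefoldin, and markers of 6 cell types. Alternatives covered scaling, the floor, a pseudocount of 32, the probe set per gene and probe sets named _s_at, _x_at or _a_at. The work used Python 3.11.15 with matplotlib 3.10.9, statsmodels 0.14.6, pandas 2.3.3 and numpy 2.4.6.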

Additional observations from a re-analysis of the deposited data

How the results depend on the processing

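With 1 array per group, no replicate could be left out, and values rest on single cultures. No paired analysis was possible because each group has 1 sample. The median of all members was above 0 under all 14 alternatives, from 0.0087 to 0.34, but not all of these could change it. Signals as deposited and no floor left it at 0.07, since the trimmed means were equal and all 44 members lay above the floor. The hybridisation controls put 88.5% of all genes above 0. The lowest median, with the second-brightest probe set, lay under the 0.013 of all genes read that way. Medians of the beta ring, lid, alpha ring and base scaffold were above 0 under all 12 alternatives run for them, which include the same settings. Of these, the second-brightest probe set covered only some genes of each group. Scaling to the hybridisation controls raised every value alike: the median became 0.34 for all members, 0.32 for the alpha ring, 0.48 for the beta ring, 0.34 for the ATPase ring, 0.37 for base scaffold and receptor, 0.42 for the lid, 0.27 for base assembly chaperones, 0.13 for activators and 0.19 for core assembly chaperones. With it 44 members were higher and 0 lower, where 88.5% of all genes were higher. It left 30 members past 1.2-fold upward, where 50.9% of all genes were, and 2 past 1.5-fold. With array medians 2 members were at least 1.2-fold lower. Averaging probe sets left 3 members at least 1.2-fold higher, where 9.02% of all genes were. Leaving out probe sets that can match several transcripts left 2 of 34, where 9.78% of all genes were. In both settings the members' share lay below that of all genes, unlike in the main setting. The second-brightest probe sets, available for 16 members, gave 8 higher and 8 lower, where 52.3% of all genes read that way were higher. They gave 0 at least 1.2-fold higher, where 13.1% of all such genes were. They also gave 2 at least 1.2-fold lower and 1 at least 1.5-fold lower, an activator median of 0.095, and a reversed log2 ratio of -0.28 for Psmc6. The shares of all genes lower by these sizes were not counted under the alternatives. The alternatives without Psmc3ip and Psme3ip1, and the half-site split by other probe sets, were added after seeing the data. The cause of these differences was not tested, apart from the uniform shift by the controls and the fewer genes with a second probe set.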

Other observations

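Genes for handling tagged proteins and carrying them to the proteasome lay on both sides of level. Of 12 measured genes, 7 were higher and 5 lower with ATCE1-C-del, with a median log2 ratio of 0.02. Nsfl1c, a cofactor of the segregase Vcp, was 1.27-fold higher at 1367 against 1078. Nploc4, another cofactor of Vcp, was 1.15-fold higher at 435.5 against 377.4. The shuttle gene Ubqln2 was 1.15-fold lower at 991 against 1136, while a dimmer probe set gave at least 0.04 in log2, its empty vector signal of 50 being under the measurable level. Nbr1, an autophagy receptor for ubiquitin, was 1.14-fold lower at 897 against 1024, and a dimmer probe set gave -0.10 in log2.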
